A study of Rattus norvegicus with 20 samples.

Results

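The genes described here encode enzymes that make, move, oxidise and break down acyl-CoA, the activated form of a fatty acid. They were chosen by symbol, with a rule that was set with earlier results of these data known. The rule took every gene paired alone with a probe set and named Acad, Acox, Acot, Acsl, Acss, Acsm, Acaa, Acat1, Hadh, Echs1, Ech1, Eci, Ehhadh, Decr, Cpt or Crat plus any suffix. This gave 48 of the 14557 genes measured, and all 48 matched a RefSeq gene of the same symbol by gene ID. Acad8 had more than 1 probe set, of which the brightest over all 20 arrays was kept. Cptp, a carrier of ceramide phosphate, matched by its symbol and is no acyl-CoA enzyme. Acox3, Acsl5, Acsl6, Acsm3, Acsm5, Acss3, Acot7, Acot11, Acaa1b and Crat are not analysed here.

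Total RNA from 20 male ZDF rats, strain given as Zucker, was measured on Affymetrix strips of the Rat Gene 2.1 ST design, with 5 arrays in each of 4 groups. Values are log2 signal after the authors' RMA normalization, and a difference of 1 is a 2-fold change in signal. Standard chow was fed to the lean controls, while a stock diet was fed to the obese group over 6 weeks. The rosiglitazone and resveratrol groups are named by compound only and are read here as obese rats given that compound. The sources used here name no dose, route, duration or diet for them, and no age or genotype for any group. Obesity in ZDF rats arises from a defective leptin receptor, so obesity here comes with defective leptin signalling. Diet and genotype cannot be told apart in the comparison of obese with lean rats. The labels name the tissue as epididymal only. Genes typical of fat cells averaged 9.13 to 10.02 log2 units over the 20 arrays (10 genes), and 12 genes of epididymal epithelium and sperm averaged 1.33 to 1.83, below the background level of 3.10. That level is the 95th percentile of 1281 olfactory, vomeronasal and taste receptor genes.

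Long-chain fatty acids are activated to acyl-CoA by the Acsl ligases and enter mitochondria as carnitine esters, made by Cpt1 on the outer membrane and turned back by Cpt2 inside. Each round of beta-oxidation then runs through an acyl-CoA dehydrogenase (Acad), a hydratase (Echs1 or Hadha), a hydroxyacyl dehydrogenase (Hadh or Hadha) and a thiolase (Acaa2 or Hadhb), and releases acetyl-CoA. Peroxisomes hold a parallel set of enzymes for very long and branched chains. Fat cells are known mainly for storing fatty acids, and rosiglitazone, a ligand of the nuclear receptor PPAR-gamma, is known to raise mitochondrial genes in fat. Resveratrol is a plant polyphenol studied for its effects on energy metabolism.

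In rosiglitazone arrays 32 of 48 members rose against obese arrays and none fell (limma, adjusted p under 0.05 over all genes), where 6.32% of all genes rose and 2.68% fell. The median log2 difference was 0.68 over the members and 0.04 over all genes. In 30 members every rosiglitazone array lay above every obese array, as did 7.62% of all genes. Against resveratrol arrays 29 members were higher and none lower (5.63% and 1.92% of all genes). No member passed between resveratrol and obese arrays (limma, 0% of all genes in each direction, with 410 genes and 0 members at an unadjusted p under 0.05). Obese rats differed from lean ones in 1 member, Eci3, which was higher (0.584% of all genes higher, 0.137% lower).

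Signal was at or below background on average for 14 members, and 34 were above it. Of the 34, 28 rose with rosiglitazone (11.5% of the 7013 genes above background). The average is over all 20 arrays, so a gene can pass through its rosiglitazone arrays alone, and counts over these 34 are a description only. Acads was near background in every group but rosiglitazone, and Decr2 in obese arrays, and both count among the 28. The 6 that did not pass were Acaa1a, Acot3, Acsl1, Acss1, Cpt1a and Eci3. Of the 14 dim members 4 rose (1.51% of the dim genes), namely Acad10, Acot4, Acot8 and Cptp, and background signal enters their folds, as it does those of Acads and Decr2. Quantile normalization of the genes moved the split of calls over the whole array from 920 higher and 390 lower to 748 and 661, and 26 members then rose and none fell. When array SD entered the fit as a covariate, 712 genes were higher and 681 lower, with 29 members higher and 1 lower, Acss1.

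The arrays of the lean group did not lie together. Lean control replicate 3 held the highest lean value in 28 of 48 members. Over the 34 members above background, the median deviation from the obese mean was 0.29 log2 units in that array and ran from -0.53 to -0.14 in the other lean arrays. The SD of signal over the genes was 1.95 in it and 1.59 to 1.76 in the others, against 1.78 to 1.95 in obese arrays. The part of signal range in this deviation was not tested. Results that rest on the lean group are therefore given with and without it.

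**Figure D1:**
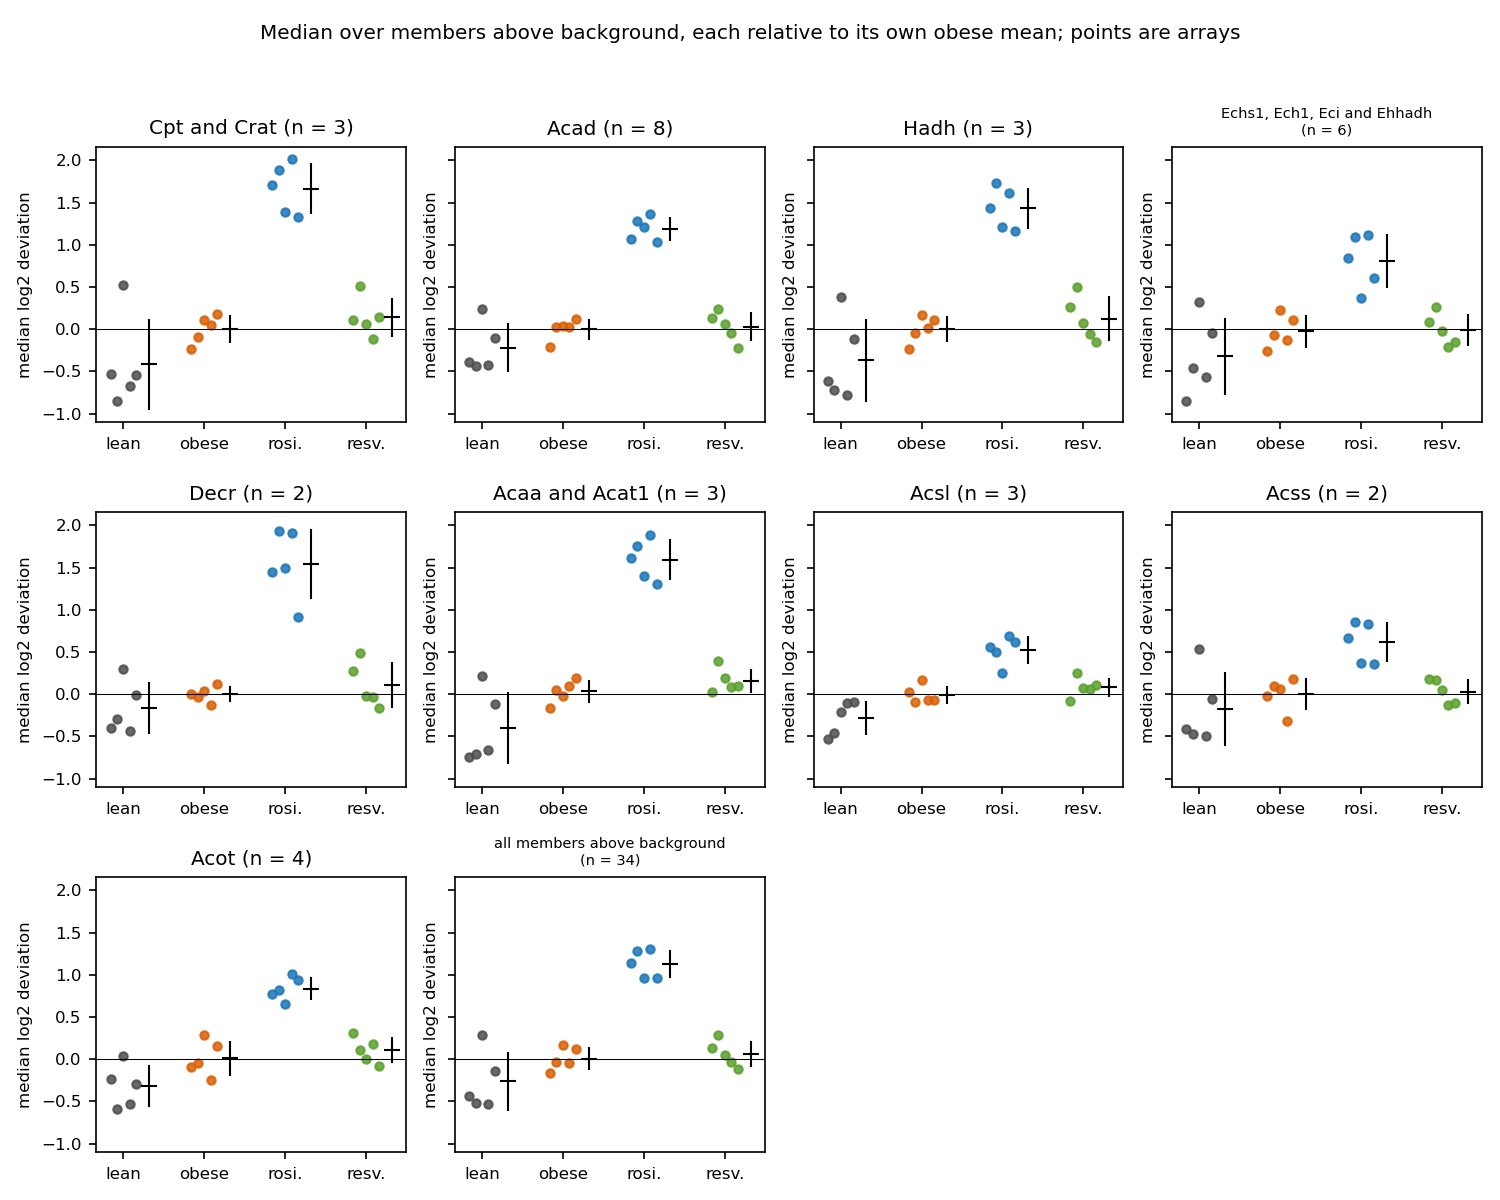
Median over the members of each family that lie above background (n beside the family name), each member taken relative to its own mean over the 5 obese arrays, in log2 units. Points are arrays, the black bar is the group mean ± SD (n = 5), and lean, rosi. and resv. stand for lean control, rosiglitazone and resveratrol. Rosiglitazone arrays lie from 0.96 to 1.31 for all 34 members together, above every array of the other groups, and 1 lean array (replicate 3) lies at 0.29, above the other lean arrays.

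The Acsl ligases trap long-chain fatty acids as acyl-CoA, and 2 of the 3 measured rose with rosiglitazone (median log2 difference 0.57). Acsl1, the main long-chain ligase of fat cells, did not pass. In order of replicate number from 1 to 5, as for every list of array values here, Acsl1 read 10.59, 10.61, 10.59, 10.50 and 10.55 log2 units in obese arrays and 10.73, 11.02, 9.76, 10.82 and 10.73 with rosiglitazone. It read 10.69, 10.41, 10.96, 10.80 and 10.74 in lean arrays and 10.49, 10.93, 10.64, 10.43 and 10.59 with resveratrol. The groups overlap, and replicate 3 of the rosiglitazone group lies below all other arrays. The log2 difference between rosiglitazone and obese was 0.04 ± 0.18 (SE, n = 5 per group; adjusted p = 0.929; 95% interval -0.32 to 0.41).

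Acsl3, a ligase of the endoplasmic reticulum and lipid droplets, read 5.79, 5.35, 5.65, 5.20 and 5.41 in obese arrays and 6.08, 6.58, 5.73, 6.23 and 6.45 with rosiglitazone. In lean arrays it read 4.87, 4.12, 5.27, 4.54 and 4.62 and with resveratrol 5.26, 5.64, 4.66, 5.64 and 5.67. Rosiglitazone and obese arrays overlap although the means differ by 0.74 ± 0.21 (1.66-fold, adjusted p = 0.0263). This call ended in 9 of 19 alternatives, with adjusted p up to 0.0891. Acsl4, which prefers arachidonic acid, read 5.18, 5.15, 5.55, 5.21 and 5.12 in obese arrays and 5.80, 5.74, 5.72, 5.93 and 5.86 with rosiglitazone. Lean arrays gave 4.71, 4.78, 4.98, 5.14 and 5.15 and resveratrol arrays 5.66, 5.49, 5.61, 5.30 and 5.35. Every rosiglitazone array is above every obese array for Acsl4, with a log2 difference of 0.57 ± 0.13 (1.48-fold, adjusted p = 0.00519).

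The Acss enzymes activate acetate, Acss2 in the cytosol for lipid synthesis and Acss1 in mitochondria for oxidation. Acss2 rose 2.92-fold with rosiglitazone, from 5.82, 5.91, 5.96, 5.42 and 6.04 in obese arrays to 7.61, 7.68, 7.37, 7.56 and 6.68 (log2 difference 1.55 ± 0.20, adjusted p = 8.17e-06). Lean arrays of Acss2 read 5.76, 5.78, 6.60, 5.58 and 6.31 and resveratrol arrays 6.26, 6.15, 6.15, 6.12 and 5.70. The rosiglitazone arrays lie above all others. Acss1 read 4.20, 4.34, 4.21, 3.99 and 4.36 in obese arrays, 3.78, 4.07, 3.42, 4.15 and 4.09 with rosiglitazone and 4.13, 4.23, 4.01, 3.67 and 4.14 with resveratrol. In lean arrays it read 3.47, 3.33, 4.52, 3.47 and 3.62, where replicate 3 lies above every obese array and the other 4 lie below them all. Its log2 difference between rosiglitazone and obese was -0.32 ± 0.19 (adjusted p = 0.359), and with array SD as a covariate it passed as lower (-0.52, adjusted p = 0.0337).

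The Acsm ligases act on medium chains, mainly in liver and kidney. All 3 measured were near background and none passed between rosiglitazone and obese. Acsm2 read 1.68, 1.98, 1.73, 1.79 and 1.71 in obese, 1.81, 1.98, 1.74, 1.74 and 1.82 in rosiglitazone, 2.47, 2.32, 1.70, 1.93 and 1.96 in lean and 2.09, 1.95, 1.98, 1.74 and 2.0 in resveratrol arrays (log2 difference between rosiglitazone and obese 0.04). Acsm4 read 2.08, 2.36, 1.82, 2.05 and 1.99, 2.25, 1.79, 1.88, 2.17 and 2.25, 2.56, 1.94, 1.73, 1.98 and 1.96 and 1.54, 1.59, 2.61, 2.03 and 2.30 in the same order (0.01), and Acsm1 differed by 0.03. None of these groups separates.

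Carnitine palmitoyltransferase 1 sets the rate at which long chains enter mitochondria, and its isoforms behaved unequally. Cpt1b, known as the muscle form, was above background on average in every group here. Its signal was 4.56, 4.73, 4.72, 4.50 and 4.91 in obese arrays and 7.63, 8.02, 7.29, 7.79 and 7.19 with rosiglitazone. It read 4.76, 5.32, 5.15, 5.07 and 4.40 with resveratrol and 4.15, 3.83, 5.20, 4.01 and 3.87 in lean arrays. All 5 rosiglitazone arrays lie above the other 15, and lean control replicate 3 lies above the other lean arrays. The difference from obese was the highest of all members at 2.90 ± 0.22 (7.46-fold, adjusted p = 3.34e-09).

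Cpt1a, the form typical of liver, read 4.75, 4.95, 5.15, 5.13 and 5.21 in obese arrays and 4.76, 4.66, 4.99, 4.77 and 5.46 with rosiglitazone. It read 5.14, 5.30, 4.85, 4.77 and 5.28 with resveratrol and 4.19, 4.04, 5.43, 4.07 and 4.50 in lean arrays. These arrays overlap, and the log2 difference between rosiglitazone and obese was -0.11 ± 0.21 (adjusted p = 0.837; 95% interval -0.55 to 0.32). Cpt2, on the inner membrane, rose 3.16-fold with rosiglitazone (1.66 ± 0.20, adjusted p = 2.2e-06), from 4.52 ± 0.31 to 6.18 ± 0.30 log2 units (SD, n = 5 each). Cpt1c, the brain form, was near background at a difference of -0.04 and did not pass. Cptp rose 1.6-fold (adjusted p = 0.0172) from a mean near background.

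Skeletal muscle uses Cpt1b, and muscle markers were low: the mean of 6 measured markers was 2.42 to 2.59 log2 units over rosiglitazone arrays and 2.48 to 2.73 over obese ones. None of these 6 was higher and 1, Tnnt3, was lower (log2 difference -0.62). Of 9 markers of brown and beige fat, 7 of them near background, 3 were higher with rosiglitazone (Cidea, Ppargc1a and Ucp1) and Ebf2 was lower. Of all genes 6.32% were higher and 2.68% lower. Ucp1 and Ppargc1a stayed below the background level with rosiglitazone too, at means of 2.43 and 2.73. The mean of these 9 ran from 3.18 to 3.42 with rosiglitazone and from 2.92 to 3.02 in obese arrays. The part of brown fat cells in the rise of Cpt1b was not tested. In whole tissue, fewer cells of a type and less RNA per cell cannot be told apart, nor can more cells and more RNA.

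**Figure D2:**
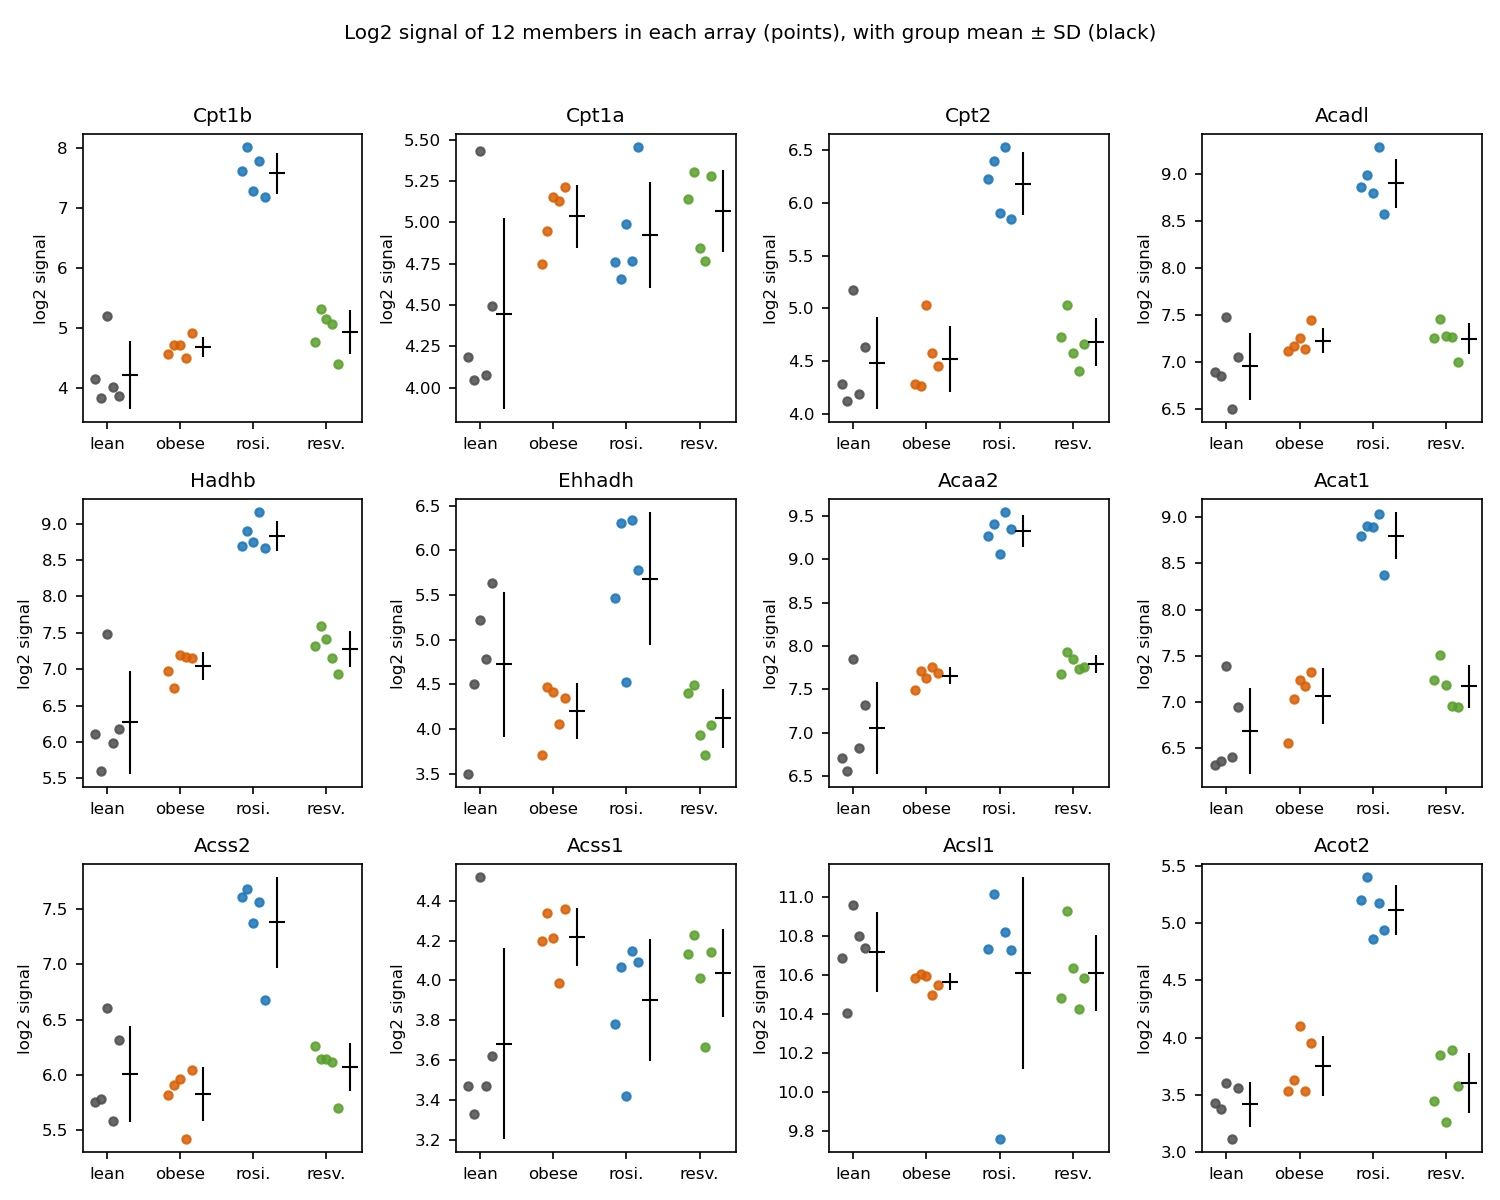
Log2 signal (vertical axis) of 12 members in each of the 20 arrays, in 4 groups of 5 on the horizontal axis; lean, rosi. and resv. stand for lean control, rosiglitazone and resveratrol, and the black bar is the group mean ± SD. Cpt1b, Cpt2, Acadl, Hadhb, Ehhadh, Acaa2, Acat1, Acss2 and Acot2 passed as higher with rosiglitazone than in obese arrays, while Cpt1a, Acss1 and Acsl1 did not pass.

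All 9 measured Acad genes rose with rosiglitazone, with a median log2 difference of 1.04. Among the dehydrogenases of straight chains, Acadl (long chains) rose by 1.68, Acads (short chains) by 1.38 from a mean near background in obese arrays, Acadvl (very long chains) by 1.38 and Acadm (medium chains) by 1.04. Among enzymes of branched-chain amino acid breakdown, Acadsb (isoleucine) rose by 1.41 and Acad8 (valine) by 0.48. Acad11 rose by 1.01, Acad10 by 0.68, and Acad9, also an assembly factor of respiratory complex I, by 0.61. Acad9 and Acad10 had overlapping groups, and their calls ended in 7 and 4 alternatives.

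Acadl had the highest difference of the family, reading 7.12, 7.17, 7.25, 7.14 and 7.44 in obese arrays and 8.86, 8.99, 8.80, 9.29 and 8.58 with rosiglitazone. It read 7.25, 7.46, 7.27, 7.26 and 7.0 with resveratrol and 6.89, 6.85, 7.48, 6.50 and 7.06 in lean arrays. The rosiglitazone arrays lie above all others (3.2-fold over obese, log2 difference 1.68 ± 0.16, adjusted p = 1.14e-07). Acad8 had the lowest, reading 4.26, 4.29, 4.06, 4.28 and 4.09 in obese and 4.52, 4.77, 4.67, 4.97 and 4.44 in rosiglitazone arrays, 4.26, 4.40, 4.27, 4.10 and 4.20 with resveratrol and 4.37, 4.37, 4.23, 4.24 and 4.55 in lean arrays. Its obese and rosiglitazone arrays do not overlap, but the difference is 1.39-fold (adjusted p = 0.015) and the call ended under quantile normalization (adjusted p = 0.161).

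The peroxisomal acyl-CoA oxidases do the same step with oxygen as acceptor. The members measured, Acox2 (bile acid side chains and branched chains) and Acoxl, were near background and did not pass, at -0.15 and -0.22. Acox2 read 1.85, 2.28, 2.22, 1.97 and 2.01 in obese, 1.92, 2.13, 2.32, 1.48 and 1.76 in rosiglitazone, 2.26, 2.35, 1.95, 2.74 and 1.83 in lean and 2.16, 1.62, 2.38, 1.63 and 1.93 in resveratrol arrays, which overlap.

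Of the 6 hydratase and isomerase genes 5 rose with rosiglitazone (median 0.88). Ehhadh, the bifunctional enzyme of peroxisomes, rose 2.8-fold, from 3.72, 4.47, 4.41, 4.06 and 4.35 in obese arrays to 5.47, 6.30, 4.53, 6.34 and 5.78 with rosiglitazone (log2 difference 1.48 ± 0.32, adjusted p = 0.00278). It read 4.41, 4.49, 3.94, 3.71 and 4.05 with resveratrol and 3.50, 4.51, 5.22, 4.79 and 5.63 in lean arrays. Rosiglitazone arrays are above all obese and resveratrol arrays but share the range of the lean arrays, which is wide. Echs1, the mitochondrial short-chain hydratase, rose by 1.12 ± 0.23 (2.18-fold) and Ech1, an isomerase of mitochondria and peroxisomes, by 0.77 ± 0.19 (1.7-fold).

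The Eci isomerases move double bonds of unsaturated chains into the position that the hydratase accepts. Eci1 (mitochondrial) read 3.93, 4.26, 4.41, 4.42 and 4.41 in obese and 4.76, 4.94, 4.53, 5.18 and 4.74 in rosiglitazone arrays, 4.35, 4.63, 4.33, 4.09 and 4.13 with resveratrol and 4.47, 4.56, 4.35, 4.32 and 4.44 in lean arrays (0.54 ± 0.14 between rosiglitazone and obese, adjusted p = 0.0149). Eci2 (peroxisomes and mitochondria) read 6.21, 6.08, 6.51, 6.09 and 6.35 in obese and 7.37, 7.52, 6.62, 7.44 and 7.21 in rosiglitazone arrays, 6.19, 6.44, 6.21, 6.32 and 6.23 with resveratrol and 5.25, 5.27, 6.57, 5.48 and 6.0 in lean arrays (0.99 ± 0.21, adjusted p = 0.00212). In both genes every rosiglitazone array is above every obese one. Eci3, a near relative of Eci2, read 5.89, 5.90, 6.14, 5.84 and 6.02 in obese and 6.37, 6.49, 6.33, 6.50 and 6.33 in rosiglitazone arrays, 5.80, 6.20, 5.40, 5.48 and 5.85 with resveratrol and 4.90, 4.60, 5.96, 4.84 and 5.28 in lean arrays. Its rosiglitazone and obese arrays do not overlap, yet the log2 difference of 0.45 ± 0.19 did not pass (adjusted p = 0.167). Eci2 and Eci3 are related in sequence, and signal of 1 in the probes of the other was not tested.

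The Decr reductases prepare polyunsaturated chains, and both rose. Decr2 (peroxisomal) read 3.23, 3.13, 2.79, 2.79 and 3.32 in obese and 4.72, 5.14, 4.53, 5.03 and 3.93 in rosiglitazone arrays, 3.42, 3.63, 2.75, 3.06 and 3.09 with resveratrol and 2.94, 2.96, 3.38, 3.12 and 3.28 in lean arrays. Decr1 (mitochondrial) read 5.85, 5.88, 6.36, 6.03 and 5.99 in obese and 7.25, 7.79, 7.54, 7.87 and 6.96 in rosiglitazone arrays, 6.20, 6.43, 6.28, 5.94 and 5.64 with resveratrol and 5.33, 5.53, 6.28, 5.08 and 5.77 in lean arrays. In each gene the rosiglitazone arrays lie above every other array. Decr1 was 2.75-fold higher than in obese arrays (adjusted p = 2.37e-05). The log2 difference of Decr2 was 1.62 (adjusted p = 3.52e-06), against an obese mean of 3.05 ± 0.25 that is not above background, so no exact fold is given.

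Hadha and Hadhb encode the subunits of the mitochondrial trifunctional protein, which runs the last 3 steps of a round on long chains, and Hadh does the third step on shorter chains. All 3 rose with rosiglitazone (median 1.42). In RefSeq the rat genes Hadha and Hadhb lie head to head on chromosome 6, with 300 bases between the starts used in its promoter table (build GRCr8). The 250 bases before the start of each share 200 bases, and they are shown because both members of this divergent pair rose together. On the strand of Hadha, the window chr6:31907551-31907800 (+) reads, with no capitals since it holds no AGGTCA on either strand:
Hadha: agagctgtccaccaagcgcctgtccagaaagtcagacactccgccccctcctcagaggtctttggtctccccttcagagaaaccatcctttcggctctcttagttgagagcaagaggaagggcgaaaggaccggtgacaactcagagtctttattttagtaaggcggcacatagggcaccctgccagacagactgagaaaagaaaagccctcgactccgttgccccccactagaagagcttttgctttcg

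Hadhb read 6.97, 6.74, 7.19, 7.17 and 7.16 in obese and 8.69, 8.91, 8.75, 9.16 and 8.66 in rosiglitazone arrays. It read 7.32, 7.59, 7.41, 7.15 and 6.93 with resveratrol and 6.11, 5.59, 7.48, 5.98 and 6.18 in lean arrays. Hadha read 7.80, 8.01, 8.22, 8.04 and 8.20 in obese and 9.01, 9.34, 9.11, 9.55 and 9.21 in rosiglitazone arrays, 8.31, 8.55, 8.13, 7.99 and 7.90 with resveratrol and 7.44, 7.33, 8.43, 7.28 and 7.94 in lean arrays. Rosiglitazone arrays lie above all others in both genes. The log2 difference from obese was 1.79 ± 0.23 for Hadhb (3.45-fold, adjusted p = 7.11e-06) and 1.19 ± 0.19 for Hadha (2.29-fold, adjusted p = 0.000111). Hadh rose by 1.42 ± 0.19 (2.68-fold, adjusted p = 9.46e-06).

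AGGTCA is the element that PPAR and other nuclear receptors bind, as a direct repeat spaced by 1 base in the case of PPAR. Of 40 members with a window of 250 bases before the start in the RefSeq table, 8 held AGGTCA on either strand, and 6 of these were among the 27 that rose with rosiglitazone. The share over all 27457 windows was 13.7%. No member held the spaced direct repeat in these exact letters, which 15 of all windows did (0.0546%). A repeat that rare would seldom be met in 40 windows, and repeats with a mismatch were not counted, so no conclusion is drawn. Cpt1b, Acaa2, Acadl and Decr1, which rose, had no window. Acadvl, which rose 2.6-fold, was the member with 2 matches and is shown for that, with the matches in capitals, from chr10:55236706-55236955 (minus strand), written along the gene. A match describes letters only.
Acadvl: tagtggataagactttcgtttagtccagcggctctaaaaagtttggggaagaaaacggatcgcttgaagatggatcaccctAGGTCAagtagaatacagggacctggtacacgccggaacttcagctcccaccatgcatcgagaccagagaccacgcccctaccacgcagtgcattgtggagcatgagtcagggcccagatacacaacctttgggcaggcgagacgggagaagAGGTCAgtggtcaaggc

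Acaa2 ends each mitochondrial round by releasing acetyl-CoA, Acaa1a does so in peroxisomes, and Acat1 works on acetoacetyl-CoA and in isoleucine breakdown. Acat1 read 6.56, 7.03, 7.24, 7.17 and 7.33 in obese and 8.80, 8.90, 8.89, 9.03 and 8.37 in rosiglitazone arrays, 7.24, 7.51, 7.19, 6.96 and 6.95 with resveratrol and 6.32, 6.36, 7.38, 6.41 and 6.95 in lean arrays. Acaa2 read 7.50, 7.71, 7.63, 7.75 and 7.68 in obese and 9.27, 9.41, 9.06, 9.54 and 9.35 in rosiglitazone arrays, 7.68, 7.93, 7.85, 7.74 and 7.76 with resveratrol and 6.70, 6.56, 7.85, 6.82 and 7.31 in lean arrays. For both, rosiglitazone arrays lie above all others, at 3.33-fold (adjusted p = 1.16e-06) and 3.18-fold (adjusted p = 6.07e-07) over obese. Acaa1a read 4.19, 4.33, 4.06, 4.27 and 4.46 in obese and 5.01, 4.45, 4.30, 4.96 and 4.69 in rosiglitazone arrays, 4.17, 4.65, 4.46, 4.45 and 4.72 with resveratrol and 4.25, 4.18, 4.47, 4.18 and 4.21 in lean arrays. Its log2 difference of 0.42 ± 0.15 did not pass (adjusted p = 0.0791).

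Acot enzymes split acyl-CoA back into fatty acid and CoA, and 5 of 10 measured rose with rosiglitazone (median 0.44). They were Acot2 (mitochondria) at 1.36, Acot13 at 1.09, Acot4 at 0.65, Acot9 (mitochondria) at 0.56 and Acot8 (peroxisomes) at 0.52. Acot2 read 3.53, 3.63, 4.10, 3.54 and 3.95 in obese and 5.20, 5.40, 4.86, 5.17 and 4.94 in rosiglitazone arrays, 3.44, 3.85, 3.26, 3.89 and 3.58 with resveratrol and 3.43, 3.37, 3.60, 3.11 and 3.56 in lean arrays, and rosiglitazone arrays lie above all others (2.58-fold over obese, adjusted p = 1.72e-06). The calls of Acot8 and Acot9 ended in 10 and 9 alternatives.

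Acot2, Acot1, Acot4, Acot3, Acot5 and Acot6 are neighbours on rat chromosome 6 and similar in sequence, so signal shared between their probe sets is possible and was not tested. Within this cluster Acot2 and Acot4 rose, while Acot3 (0.37), Acot1 (0.09), Acot5 (-0.09) and Acot6 (-0.13) did not pass, the last 3 near background. Acot4 was near background in every group as well, with means of 2.25 in obese and 2.90 in rosiglitazone arrays. Acot12, a cytosolic acetyl-CoA hydrolase of liver, had the lowest difference at -0.14 and was near background. It read 2.32, 2.51, 2.13, 2.47 and 2.38 in obese, 2.66, 2.45, 2.08, 2.06 and 1.84 in rosiglitazone, 2.34, 2.58, 2.60, 2.85 and 2.17 in lean and 2.69, 2.33, 3.08, 2.23 and 2.72 in resveratrol arrays, which overlap.

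**Figure D3:**
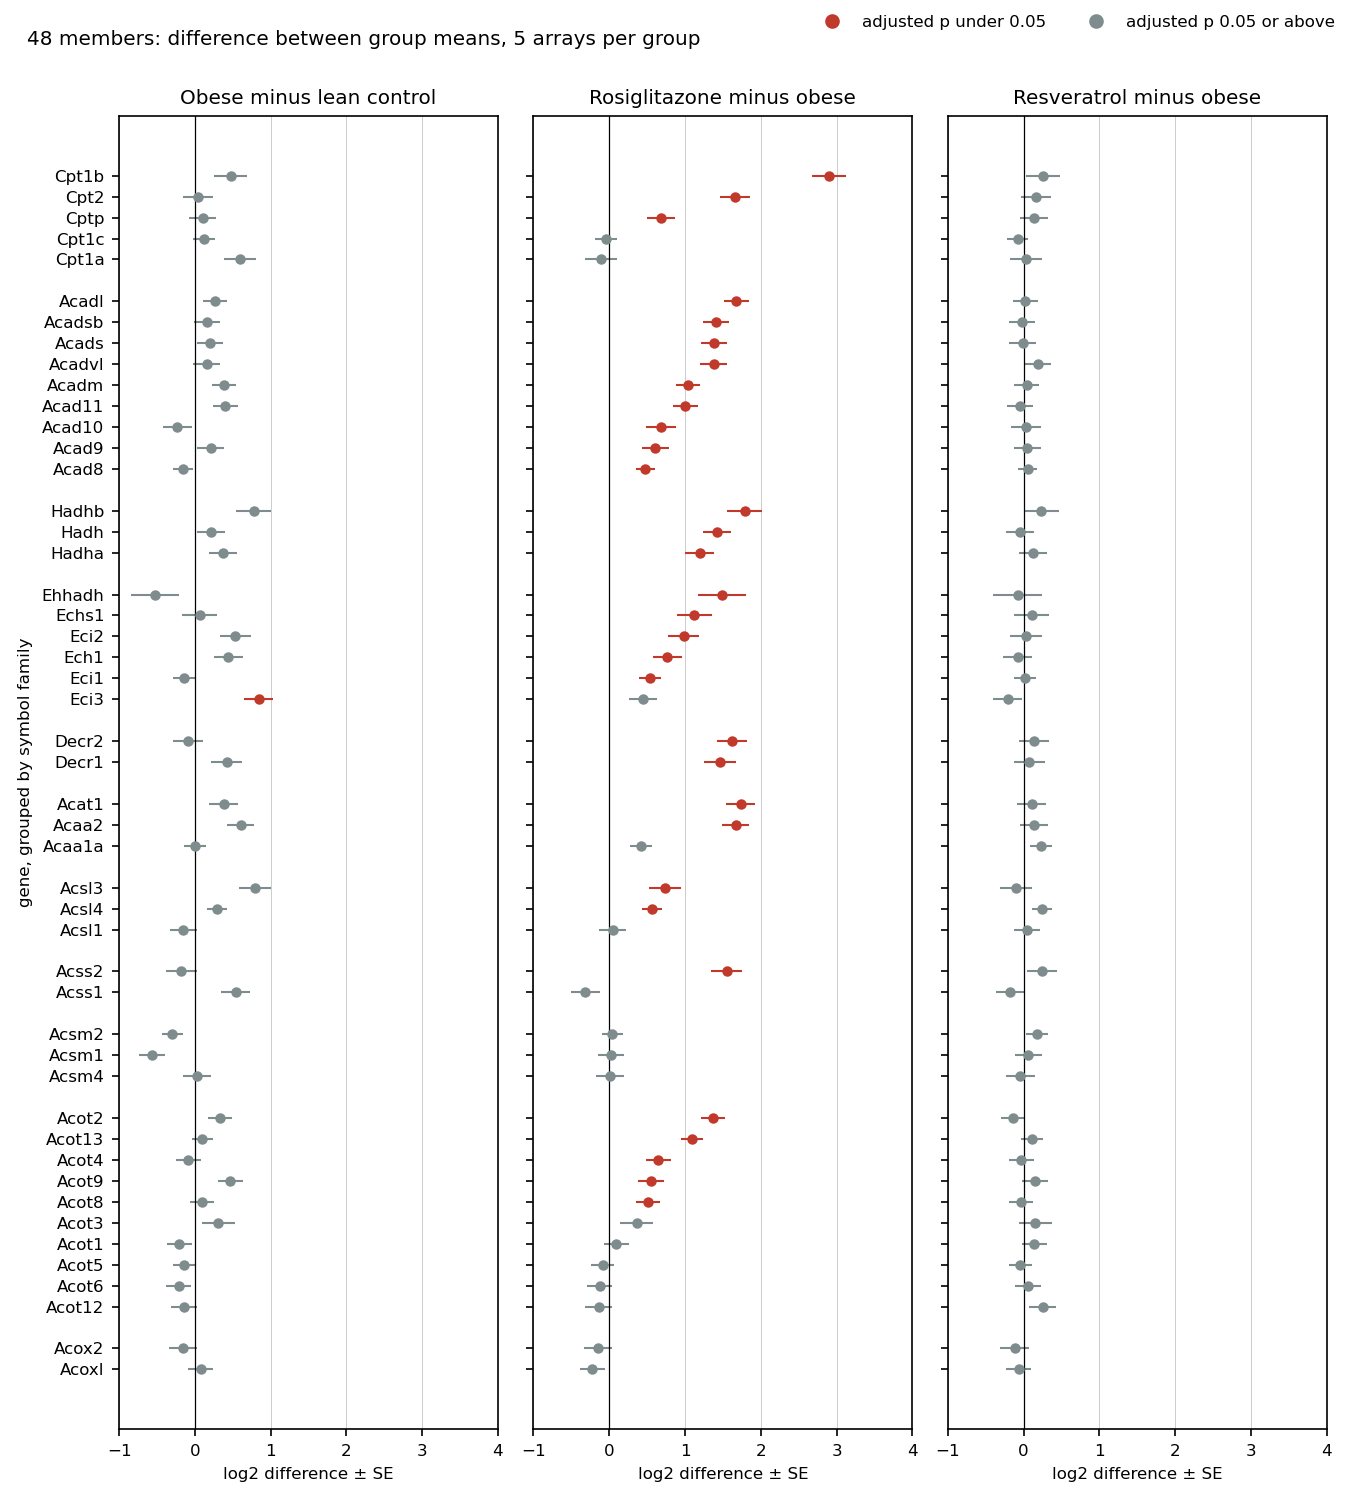
Log2 difference between group means (horizontal axis, bars are SE, n = 5 arrays per group) of all 48 members, grouped by symbol family and ordered by the difference between rosiglitazone and obese. Red marks an adjusted p under 0.05 over all genes, which 32 members reach in the middle panel, Eci3 alone in the left panel and no member in the right panel.

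The members were also sorted by where their protein is known to lie, a grouping made with these results known and given without a test. Of 22 mitochondrial members above background 20 rose with rosiglitazone, with log2 differences from -0.32 to 2.90 and a median of 1.37, and Cpt1a and Acss1 did not pass. Of 3 peroxisomal ones above background 2 rose, Decr2 and Ehhadh, and Acaa1a did not pass. Among 4 members of the cytosol, endoplasmic reticulum or other membranes above background, 3 rose, as did 3 of the 5 that lie in several places or were not assigned (median 0.77). Of all genes above background 11.5% rose. With dim members included, 20 of 25 mitochondrial members rose (median 1.19) and 4 of 6 peroxisomal ones (median 0.58). For the cytosol and membranes it was 4 of 8, and for the rest 4 of 9, where 6.32% of all genes rose.

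Enzymes of like reaction were compared within arrays, as the difference in log2 signal of 1 gene and its counterpart, which cancels a shift of a whole array but not a change in its signal range. The pairs were chosen with earlier results of these data known, so their p-values are descriptive and no independent test. Of the 7 pairs 3 changed between obese and rosiglitazone arrays (exact permutation test, 2-sided, adjusted over 21 tests). Cpt1b minus Cpt1a went from -0.35 ± 0.18 to 2.66 ± 0.64 (SD, n = 5 each), a difference of 3.01 (exact p = 0.00794, adjusted p = 0.0333). Acaa2 minus Acaa1a, mitochondrial against peroxisomal thiolase, went from 3.39 ± 0.14 to 4.64 ± 0.25, and Acss1 minus Acss2, mitochondrial against cytosolic acetate ligase, from -1.61 ± 0.12 to -3.48 ± 0.54. Both have the same exact p, which is the smallest that 5 against 5 arrays can give. In these 3 pairs the obese and rosiglitazone arrays do not overlap. Without obese replicate 3, none of the 7 pairs passed after adjustment, although the arrays of these 3 pairs stay apart. With 5 against 4 arrays the exact p cannot go below 0.00794, and adjustment over 21 tests can lift that past 0.05. This count therefore does not show that the differences rest on that array.

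The other 4 pairs did not pass between rosiglitazone and obese. Hadha minus Ehhadh differed by -0.29 between rosiglitazone and obese (exact p = 0.349) and Decr1 minus Decr2 by -0.16 (exact p = 0.468). Eci1 minus Eci2 differed by -0.44 (exact p = 0.0397, adjusted p = 0.0833) and Acsl1 minus Acsl4 by -0.52 (exact p = 0.0159, adjusted p = 0.0556). Between lean and obese arrays 2 pairs passed. Acss1 minus Acss2 was -2.33 ± 0.25 in lean and -1.61 ± 0.12 in obese arrays, so it was higher in obese rats and lower with rosiglitazone. Acsl1 minus Acsl4 went from 5.77 ± 0.19 in lean to 5.33 ± 0.17 in obese arrays (exact p = 0.00794 and adjusted p = 0.0333 for each). Without lean control replicate 3, 4 pairs passed, and without obese replicate 3, 0. Here too the exact p cannot go below 0.00794 with 5 against 4 arrays. No pair passed between resveratrol and obese arrays in the exact test. The smallest p was that of Acss1 minus Acss2, which differed by -0.43 (exact p = 0.0397, adjusted p = 0.0833).

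**Figure D4:**
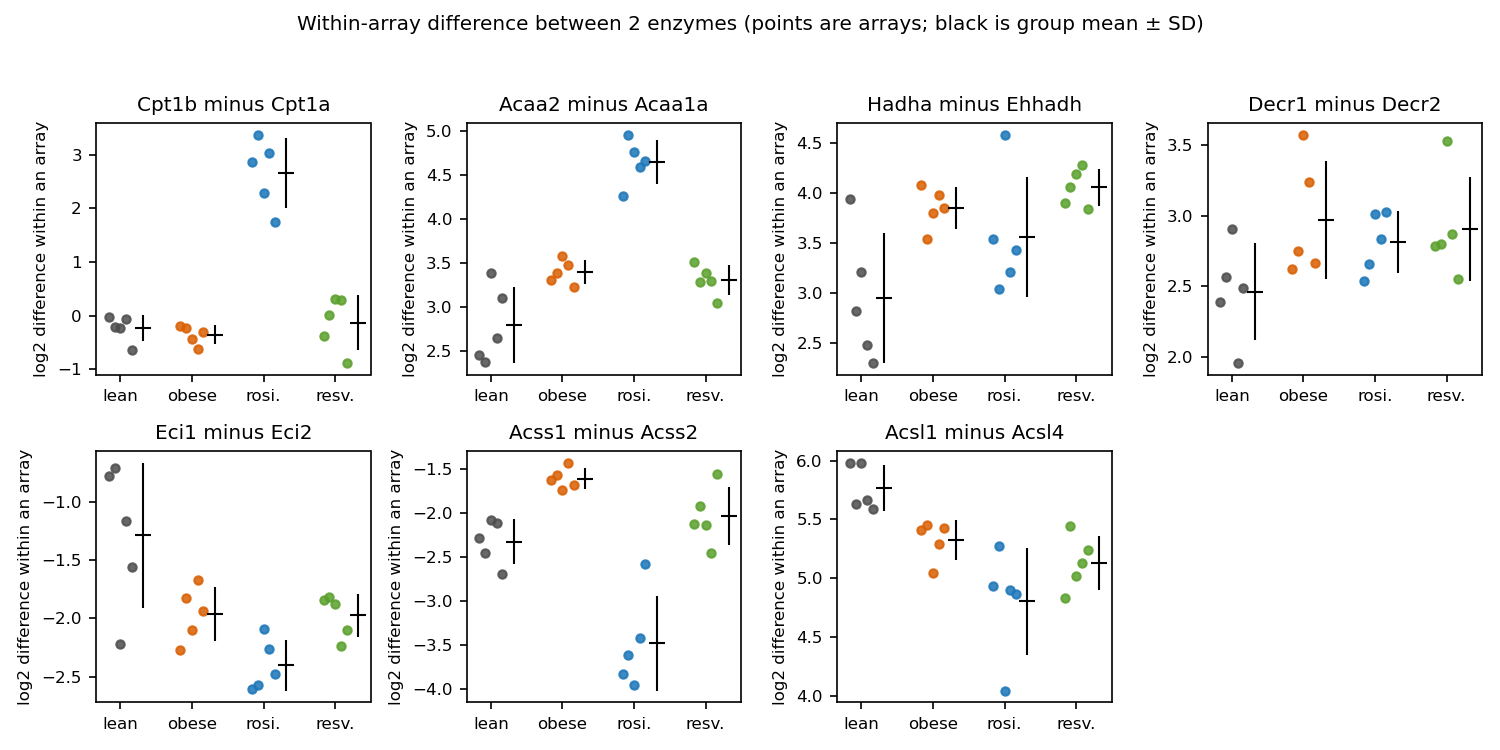
Difference in log2 signal between 2 enzymes within each array (vertical axis) for 7 pairs, by group; points are arrays and the black bar is the group mean ± SD (n = 5), with lean, rosi. and resv. for lean control, rosiglitazone and resveratrol. Cpt1b minus Cpt1a lies from 1.74 to 3.37 with rosiglitazone and from -0.63 to -0.19 in obese arrays, and Acss1 minus Acss2 lies lower with rosiglitazone (-3.95 to -2.58) than in obese arrays (-1.75 to -1.43).

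Between obese and lean rats Eci3 was the 1 member called, 1.79-fold higher in obese rats (log2 difference 0.84 ± 0.19, adjusted p = 0.0425), and lean control replicate 3 overlapped the obese arrays. Over all members the median log2 difference was 0.14 (all genes 0.01), and 33 of 48 were positive. In no member did the groups separate, while 1.07% of all genes separated as higher and 1.06% as lower in obese rats. Without lean control replicate 3, 15 members were higher and 1, Acsm1, lower, and 12.7% of all genes were then called in either direction, against 0.721% with all arrays. Besides Eci3 these were Acaa2, Acad11, Acadm, Acat1, Acot9, Acsl3, Acss1, Cpt1a, Cpt1b, Decr1, Ech1, Eci2, Hadha and Hadhb. Hadhb then had the highest log2 difference at 1.08 (adjusted p = 0.000139), against 0.78 with all arrays (adjusted p = 0.0917). Leaving out any other lean or obese array gave 0 calls among the members and 4 to 42 over all genes. With array SD as a covariate 0 members passed in limma, and 0 of all genes. Without that covariate 17 members had an unadjusted p under 0.05 in limma, as did 2651 of the 14557 genes. Of 10 macrophage markers, 4 were higher in obese rats (Cd68, Gpnmb, Lyz2 and Lgals3), with a list mean of 5.88 to 6.52 against 4.55 to 6.39 in lean arrays, and of 10 fat cell markers Lep was higher and Cfd lower. The part of macrophages in the differences of the members was not tested.

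No member passed between resveratrol and obese arrays in limma. The log2 differences ran from -0.21 (Eci3) to 0.26 (Cpt1b), with a median of 0.05, and 0 members had an unadjusted p under 0.05. The 95% interval stayed inside 2-fold up or down for all 48 members and inside 1.5-fold for 41. Among the members named above, Cpt1b differed by 0.26 ± 0.22 (95% interval -0.20 to 0.71), Hadhb by 0.24 ± 0.23 (-0.24 to 0.71), Acadl by 0.02 ± 0.16 (-0.31 to 0.35) and Acss2 by 0.25 ± 0.20 (-0.17 to 0.66). For the 14 dim members such intervals concern signal and not RNA.

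Against lean arrays, 4 members were higher with resveratrol (2.09% of all genes; 0.543% were lower): Hadhb (2.02-fold, adjusted p = 0.0198), Acaa2 (1.67-fold), Acsl4 (1.45-fold) and Acot9 (1.54-fold). Among the members, the resveratrol arrays of Acsl4 alone lay above all lean arrays, as did those of 1.02% of all genes. Without lean control replicate 3, 17 were higher and 1 lower, with 14.2% of all genes called in either direction. Without lean control replicate 1 or 2 or resveratrol replicate 2, 0 passed. It was 1 without lean control replicate 4, and 2 without resveratrol replicate 1, 3 or 5. Macrophage markers were higher in 5 of 10 cases in this comparison, with a list mean of 6.13 to 6.87 against 4.55 to 6.39 in lean arrays, and their part in the result was not tested.

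The direct comparison of rosiglitazone with resveratrol arrays tests whether the compounds differ. Every rosiglitazone array lay above every resveratrol array in 27 of the 48 members (6.11% of all genes), which were 26 of the 29 called and Acsl4. The groups overlapped in Acad10, Acot4 and Eci1. Cpt1b differed by 2.64 ± 0.22 (6.25-fold, adjusted p = 1.76e-08), Acadl by 1.66 ± 0.16, Acat1 by 1.63 ± 0.19 and Ehhadh by 1.56 ± 0.32. Acad9, Acot9, Acsl4 and Cptp, which passed against obese, did not pass here, and Eci3 passed here (0.66, adjusted p = 0.0321).

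Against lean arrays 33 members were higher with rosiglitazone and 1 lower, Acsm1 near background (-0.54), where 18.4% of all genes were higher and 6.55% lower. In 28 members the groups did not overlap, as in 8.39% of all genes in that direction. Quantile normalization gave 30 higher members and 0 lower, with 1466 genes higher and 1327 lower over the array. Without lean control replicate 3, 34 members were higher and 2 lower, and 33.4% of all genes were called in either direction. The median log2 difference was 0.99, and Cpt1b was 10.3-fold, Hadhb 5.91-fold, Acaa2 4.84-fold and Acat1 4.33-fold higher. Cpt1a (0.48) and Acsl1 (-0.11) did not pass. In this comparison 5 of 8 endothelial markers were lower and 1 higher (list mean 4.77 to 5.18 against 5.03 to 5.98), 5 of 10 fibroblast markers lower (6.54 to 7.53 against 7.02 to 8.22) and 3 of 10 macrophage markers higher (5.34 to 7.02 against 4.55 to 6.39). Their part in the result was not tested.

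Other genes of the pathway, listed with earlier results of these data known, moved in part with the members. Beside the counts that follow, 6.32% of all genes rose with rosiglitazone against obese and 2.68% fell. Among genes above background 11.5% rose. All 3 measured genes of electron transfer from the Acad enzymes rose with rosiglitazone, from Etfa at 1.52 to Etfb at 0.81. In carnitine transport 2 of 5 rose, led by the mitochondrial carnitine carrier Slc25a20 at 1.66 (adjusted p = 1.81e-07), and the cell membrane carrier Slc22a5 was at 0.01. In the tricarboxylic acid cycle, which burns the acetyl-CoA, 13 of 14 rose, from Idh3a at 1.67 down to Idh2 at 0.13, which did not pass. Of 11 peroxisomal genes outside the families 6 rose, led by the multifunctional enzyme Hsd17b4 at 1.19, and the lowest was Scp2 at -0.82 (adjusted p = 0.061). Peroxisome assembly had 2 of 10 higher, Pex3 at 1.08 and Pex11a, with Pex6 lowest at -0.01. No gene of these 5 lists was lower.

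Ketone body genes had 3 of 4 higher with rosiglitazone, where 6.32% of all genes rose. The ketone-forming dehydrogenase Bdh1 was at 1.84, from an obese mean of 2.65 ± 0.48 near background, and Oxct1, which begins ketone use, at 0.10. Malonyl-CoA, made in fat synthesis, blocks Cpt1, and all 3 measured genes around it rose, from the citrate-splitting enzyme Acly at 2.06 to Mcat at 0.71. Mlycd, which breaks malonyl-CoA down, was among them at 0.77. Uptake genes and carriers had 3 of 8 higher, led by the fatty acid binding protein Fabp3 at 4.89, and the lowest was Slc27a6 at -0.18, which did not pass. Among 12 regulators 2 rose, the fatty acid sensor Ppara at 1.39 and the coactivator Ppargc1a at 0.89, and the corepressor Nrip1 was lowest at -0.42. Ppargc1a was near background in both groups, with means of 1.83 in obese and 2.73 in rosiglitazone arrays. Obese and lean rats differed in 1 gene over these 9 lists, in the tricarboxylic acid cycle (0.721% of all genes), and resveratrol and obese arrays in 0 with limma.

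Markers of other cells moved between rosiglitazone and obese arrays as well, where 6.32% of all genes were higher and 2.68% lower. Endothelial markers had 5 of 8 lower and 1 higher, with a list mean of 4.77 to 5.18 against 5.46 to 6.20, and fibroblast markers had 4 of 10 lower (6.54 to 7.53 against 7.49 to 8.02). Of 10 fat cell markers Cfd alone was higher (list mean 9.75 to 9.85 against 9.55 to 9.82), and no macrophage marker of 10 passed (5.34 to 7.02 against 5.88 to 6.52). Of 7 liver markers, 5 of them near background, Alb alone was higher, at 8.61 to 9.90 with rosiglitazone against 3.46 to 7.42 in obese arrays. The list mean of these 7 was 3.57 to 3.85 against 2.94 to 3.68. The part of cell composition in the rise of the members was not tested.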

How the data were processed

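Epididymal RNA of 20 rats was measured on 1 array each. The deposited log2 values were made by the authors with RMA, which corrects background, normalizes between arrays and summarises probes, per the submitters' processing notes (version not given in the sources used here). RMA shrinks differences of dim genes. Of 36685 features, 14824 were paired with 1 gene symbol by the platform annotation, 829 with several and 21032 with none. For the 234 genes with several such probe sets the brightest over all arrays was kept, which left 14557 genes. Array medians ran from 2.50 to 2.74, no 2 arrays were identical, and the number of arrays limits the precision (median SE 0.17 between rosiglitazone and obese). The labels give no strip or scan batch, so no batch could be fitted.

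All 4 groups entered 1 fit with limma 3.58.1 (lmFit and eBayes, R 4.3.3), p-values were adjusted by Benjamini-Hochberg over the 14557 genes, and the threshold was an adjusted p of 0.05. Every adjusted p in the text comes from this fit unless an exact test, an alternative or a left-out array is named. The labels call the arrays of a group biological replicates, taken here as 1 rat each. Pairs of enzymes were compared by 2-sided exact permutation tests in Python 3.11.15. In all, 7 pairs were compared. Both methods were tested on simulated data. Array values were named for the members with the highest and lowest difference between rosiglitazone and obese in each family (the highest only in families of 1 or 2), those called in the other 2 comparisons with obese arrays, and those of the enzyme pairs. Of each pathway list the highest and lowest member were named. The symbol rule, the pairs and the lists were set with earlier results of these data known. Promoter windows came from RefSeq (build GRCr8) and both strands were searched. Same-numbered arrays in different groups correlated by -0.26 to 0.28 in their deviations, over 0.1 in 4 of 30 cases, so the numbers were not taken as pairs. Alternatives were other scalings, filters, fits and leaving out each array.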

Additional observations from a re-analysis of the deposited data

Results flagged for a closer look

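In 13 of 192 sets of 5 arrays, 1 array lay far from the other 4 (Dixon's test), and chance gives about 1 in 20. Lean control replicate 3 was high for 3 members: Cpt1b at 5.20 against 3.83 to 4.15, Acss1 at 4.52 against 3.33 to 3.62 and Acaa1a at 4.47 against 4.18 to 4.25 log2 units in the other lean arrays. Cptp was low in lean control replicate 5 at 1.93 (others 2.78 to 3.11). In obese arrays, Acad9 was low in replicate 1 at 3.19 (others 3.88 to 4.08) and Acsl4 high in replicate 3 at 5.55 (others 5.12 to 5.21). In rosiglitazone arrays, replicate 3 was low for Acsl1 at 9.76 (others 10.73 to 11.02) and for Acot13 at 4.21 (others 4.57 to 4.65), and replicate 4 was high for Acot8 at 3.77 (others 3.33 to 3.45). In resveratrol arrays, replicate 5 was low for Acot13 at 3.11 (others 3.54 to 3.70) and for Acss2 at 5.70 (others 6.12 to 6.26). Replicate 1 was high for Acad10 at 3.38 (others 2.44 to 2.65) and replicate 2 for Hadh at 7.90 (others 7.22 to 7.34).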

How the results depend on the processing

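Between rosiglitazone and obese arrays 23 of the 32 calls among the members held in every alternative run, which were 19, or 18 for Acot4, which the filter on dim genes removed. No called member changed sign in any comparison. Among members that were not called, the sign turned in some alternative for 18 between obese and lean, 23 between resveratrol and obese and 6 between rosiglitazone and obese. The calls lost in some were those of Acad10, Acad8, Acad9, Acot8, Acot9, Acsl3, Acsl4, Cptp and Eci1. Between 24 and 33 members passed, with 24 without rosiglitazone replicate 4. The results on the lean group moved more. Between obese and lean rats 0 members passed with array SD as a covariate, 0 when adjusted over all features, 0 with only the 2 groups fitted, 2 with only genes above background, and 0 to 16 when 1 array was left out (16 without lean control replicate 3). Between resveratrol and lean rats 1 passed after quantile normalization, 0 with array SD, 7 with only genes above background, 0 over all features, 0 with only the 2 groups, and 0 to 18 when 1 array was left out. Of the enzyme pairs between obese and lean rats, 1 passed after quantile normalization and 0 to 4 without 1 array. Between rosiglitazone and obese 0 to 4 passed without 1 array, and between resveratrol and obese 0 to 1. With 5 against 4 arrays the exact p cannot go below 0.00794, so these counts can move through the adjustment alone. With the replicate number as a block, 0 pairs passed between obese and lean and 0 between rosiglitazone and obese, since that exact test cannot go below p = 0.0625, and 31 members were called between rosiglitazone and obese. Only 3 of 20 arrays correlated best with their own number. Over all genes, quantile normalization gave 43 higher and 29 lower between obese and lean (85 and 20 as reported), 580 and 506 between rosiglitazone and resveratrol (820 and 280), 1466 and 1327 between rosiglitazone and lean (2678 and 954) and 240 and 133 between resveratrol and lean (304 and 79). With array SD these were 640 and 576 between rosiglitazone and resveratrol and 433 and 496 between rosiglitazone and lean. For these changes the cause was not tested.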
